A study of Mus musculus with 12 samples.

Results

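The amount of RNA cross-linked to hnRNP H was compared with the amount of the same gene's RNA in mouse striatum after methamphetamine. The genes described are those with at least 10 CLIP reads (reads in deposited hnRNP H peak positions) in each of the 3 methamphetamine CLIP libraries and a value in the RNA-seq table, which gave 5019 genes, hereafter members, of 13202 genes in both tables. Of these members, 5014 were protein-coding. All mice were wild-type C57BL/6J, born to heterozygous Hnrnph1 mutant fathers and C57BL/6J mothers, and 50 to 100 days old. They received saline on days 1 and 2 and, on day 3, methamphetamine at 2 mg/kg or saline again, into the peritoneum. Striata from both hemispheres were taken 30 min later. Each replicate was a pool of striata from 4 mice, 2 females and 2 males. From each pool a portion was set aside for RNA-seq before cross-linking, so the CLIP and RNA libraries with the same number share a pool. There were 3 pools after methamphetamine and 3 after saline. The CLIP antibody was raised against hnRNP H, and the membrane was cut from 50 to 75 kDa, which holds RNA fragments of 30 to 70 nucleotides. Mutant animals of the study were not analysed here.

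hnRNP H is a nuclear RNA-binding protein that recognises runs of guanines and takes part in the choice of exons and of polyadenylation sites. Its gene Hnrnph1 is known in mice as a gene that influences the locomotor response to methamphetamine. Methamphetamine releases dopamine in the striatum, where most neurons are medium spiny neurons. A CLIP read count depends on how much of a transcript is present, spliced or unspliced, and on how often the protein was cross-linked to it, whereas RNA-seq read counts of a gene table follow mostly the spliced exons. Setting one against the other therefore shows which genes hold more or fewer hnRNP H reads than their RNA level alone would give.

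The CLIP libraries after methamphetamine held 909091, 979878 and 595372 reads in peak positions (pools 1, 2 and 3), and the RNA libraries held 4901709, 4882772 and 5091839 reads. One CLIP and one RNA library stood apart from the other 2 of their group. In the CLIP library of pool 1, 28.6% of reads lay at the single strongest position of a member, against 44.1% and 42.1% in pools 2 and 3 and 41.3 to 44.0% in the saline libraries. In the RNA library of pool 2, the summed level of 12 choroid plexus markers was 5377 CPM (reads scaled to a common library size) against 292 and 189 CPM. Its deposited values were scaled to 0.897 of its read total, against 1.02 in both other pools. The saline RNA libraries were scaled to 0.904, 1.01 and 0.860, so 0.897 lay within their range. Counts of genes are therefore given below also without each pool. All 12 markers of medium spiny neurons had RNA reads, with a summed level of 8439, 11929 and 8590 CPM. Members held 70.7 to 75.0% of the CLIP reads of each methamphetamine library, 74.1 to 76.8% of them in introns and 8.56 to 13.7% in 3′ untranslated regions (3′ UTRs).

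CLIP and RNA levels were put on the log2 CPM scale, each library was centred at its median member, and CLIP minus RNA was taken for each gene and pool, so that 0 marks genes whose CLIP level lies as far from its library median as their RNA level does. This difference ranged over members from -8.77 to 12.93, with 5% of members below -2.72 and 5% above 5.59 and a median of 0.06. Its SD across members was 2.27, 2.79 and 2.78 in the 3 pools, and the median SD of 1 gene between pools was 0.62. A gene was called where limma gave an adjusted p under 0.05 over all 13202 genes. CLIP was above RNA in 1690 members and below RNA in 1449, while 1880 were not called. Over all genes tested, 17.9% were called above and 42.2% below, with a median difference of -0.99. Without pool 1 the member counts were 1668 above and 1404 below, without pool 2 they were 1393 and 1057, and without pool 3 they were 1257 and 936. Of the 3139 called members, 3121 had the same sign in all 3 methamphetamine pools and 3032 (96.6%) in all 3 saline pools.

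The rule for members fixes part of this picture, since it asks for CLIP reads and not for RNA reads. All 410 members with fewer than 10 RNA reads in some methamphetamine library were called above, and 6 members had no RNA read at all. Among the 4609 other members, 1280 were above and 1449 below. The share of tested genes that were members climbed from 19.9% at an RNA level of log2 CPM 0 or lower to 86.5% above log2 CPM 8. The median difference of members went from 6.71 to -1.99 between those same RNA levels. Across members the Spearman correlation of the difference with RNA level, which is itself part of the difference, was -0.79. At the threshold, 257 members whose weakest library had exactly 10 reads had a median difference of -0.58, and 267 genes whose weakest library had 9 reads had -1.11. In bulk tissue, fewer cells of a type and less RNA per cell cannot be told apart.

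**Figure D1:**
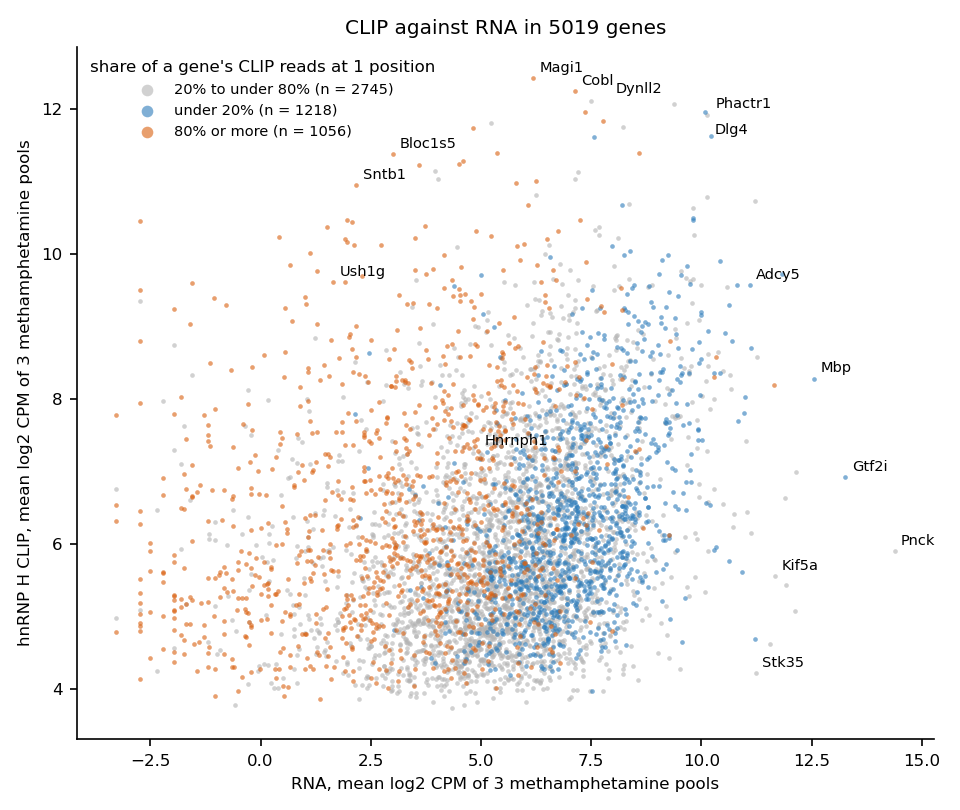
Mean hnRNP H CLIP level (vertical, log2 CPM) against mean RNA level (horizontal, log2 CPM) over 3 methamphetamine pools, 1 point per member, coloured by the share of a gene's CLIP reads at its strongest position. Genes with 80% or more of their reads at 1 position (1056, orange) spread to the left at high CLIP levels, and genes with under 20% (1218, blue) lie to the right.

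Members differed widely in how concentrated their CLIP reads were. The count table divides genes into windows of 100 nucleotides counted from the gene's start. Each window it lists is a position, and some listed windows have no methamphetamine read. A member had a median of 11 positions, and its strongest position held a median of 38.1% of its methamphetamine reads. In 1056 members 1 position held 80% or more, and 519 of these had only 1 position. These single-position members had a median difference of 2.85. Of them 800 were called above and 41 below, so they made up 47.3% of all members called above. Members with under 20% of reads at any position numbered 1218, with a median of -1.01, 101 above and 644 below. The classes differed in RNA level far more than in CLIP level. Median RNA was 7.07 log2 CPM in members with 20% or less at their strongest position and 3.36 in single-position members. Median CLIP was 6.18 and 6.20 log2 CPM in these classes, and 5.59 at lowest in the classes between. The strongest position was picked on the methamphetamine reads, but the concentration was also there in saline: 985 of the 1056 (93.3%) had 80% or more of their saline reads at that same position.

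The single positions lay in an intron in 756 of 1056 genes (71.6%). The authors' deposited methamphetamine peak list contained the strongest position in 300 of them (28.4%), against 1970 of all 5019 members (39.3%). In 48 of them (4.55%) the position overlapped an exon of another gene, close to the 4.30% over all members. Their strongest positions alone took 15.3% of the reads of methamphetamine pool 1 and 24.2 to 26.3% of the 5 other CLIP libraries, so pool 1 after methamphetamine was low. A listed window next to the strongest one held methamphetamine reads in 28 of the 1056 (2.65%), against 1477 of the 3963 other members (37.3%). The 519 genes with only 1 position cannot have such a window, and the cause in the rest was not tested.

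**Figure D2:**
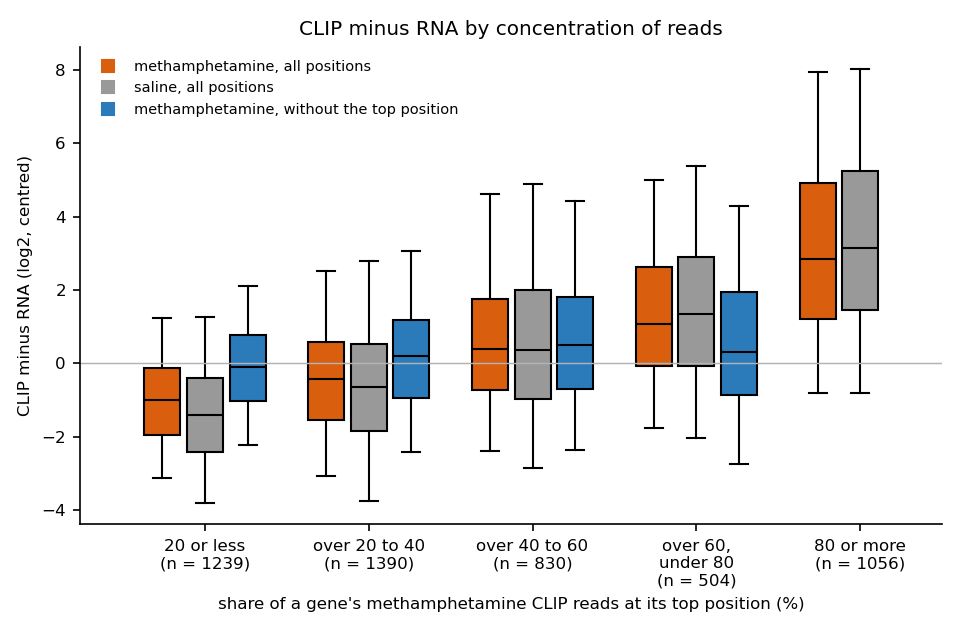
CLIP minus RNA (log2, centred) of members grouped by the share of methamphetamine CLIP reads at their strongest position; boxes span quartiles with the median, whiskers the 5th to 95th percentiles. The medians climb from -1.02 to 2.85 after methamphetamine and from -1.42 to 3.15 after saline. Boxes without the strongest position, centred anew, are drawn for the first 4 classes only, since 531 members of the last have no methamphetamine read left.

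The 8 members with the highest difference, among those with at least 10 RNA reads per library, all belonged to the single-position class. Sntb1, which encodes the scaffold protein beta-1 syntrophin, had 1385, 3544 and 829 CLIP reads in the 3 pools and 16, 40 and 15 RNA reads, a difference of 8.50 (SE 0.54, limma adjusted p = 5.40e-06). Its 3 pools lay at 8.45, 8.31 and 8.74, and every CLIP read fell in 1 intronic window, chr15:55703789-55703888 on the minus strand (GRCm38). Pus10, a pseudouridine synthase gene, followed with 1033, 2070 and 706 CLIP reads against 19, 12 and 27 RNA reads and a difference of 8.23. The calcium-activated chloride channel gene Ano1 had 1000, 1874 and 760 CLIP reads against 30, 17 and 15 RNA reads (8.10). Bloc1s5, a subunit of a complex that builds lysosome-related organelles, had 1781, 2958 and 1895 CLIP reads against 48, 30 and 39 RNA reads (8.10). Gipc2, Dpf3, Atp8b1 and Ush1g completed the group at 8.02, 7.93, 7.73 and 7.68. In all 8 genes each saline pool was also above 0, from 6.77 in Ush1g to 10.13 in Sntb1. Pus10 and Bloc1s5 had their strongest position in the 3′ UTR and the 6 others in an intron. None of these 8 positions was in the authors' deposited methamphetamine peak list, which held the strongest position of 39.3% of all members. Bloc1s5 and Dpf3 each had 1 other position listed. The CLIP libraries were also centred anew without the strongest position of every gene, which by itself adds 1.13 to each difference. On that scale, Bloc1s5 stayed at 5.95 and Dpf3 at 5.56, and no read was left in the others.

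Reads of the members with the highest CLIP levels came either from 1 window or from many. Of the 8 members with the highest mean CLIP level, Magi1, Cobl, Klhl2 and Psd3 had 98.7%, 88.6%, 97.7% and 98.0% of their reads at 1 intronic position. Magi1, a scaffold of cell junctions, had CLIP levels of 11.62, 13.15 and 12.49 log2 CPM and RNA levels of 5.90, 6.23 and 6.41, a difference of 5.96 (SE 0.40). Without that position the differences were 0.97 for Magi1, 0.10 for Klhl2 and -0.82 for Psd3, none of them called, and 2.79 for Cobl, which stayed called. The other 4 were spread over more windows and stayed called without the strongest one. Dlgap2, which encodes a postsynaptic scaffold protein, had 46 positions, all in introns, and a difference of 4.33 (SE 0.33). Phactr1, a regulator of protein phosphatase and actin, had 949 positions with CLIP levels of 13.10, 11.46 and 11.30 log2 CPM and RNA levels of 9.94, 10.13 and 10.16. Its difference was 1.60 (SE 0.41), with pool 1 at 2.76 and pools 2 and 3 at 1.03 and 1.01. In none of these 8 genes was the strongest position in the authors' deposited methamphetamine peak list. Other positions were listed in all of them except Magi1.

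Dynll2 and Dlg4 were the 2 members of this group bound mostly in the 3′ UTR. Dynll2, a dynein light chain gene, had 24 positions with 99.3% of reads in the 3′ UTR. It had CLIP levels of 12.47, 12.30 and 11.45 log2 CPM and RNA levels of 9.58, 9.01 and 9.53, a difference of 2.42 (SE 0.31, limma adjusted p = 1.52e-04). Dlg4, which encodes the postsynaptic scaffold PSD-95, had 97 positions with 73.1% of reads in the 3′ UTR. It had CLIP levels of 11.86, 12.25 and 11.62 and RNA levels of 9.84, 10.29 and 10.22, a difference of 1.51 (SE 0.28). All 3 pools of both genes were above 0 and overlapped their saline pools.

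The windows behind these values can be set beside those of single-position genes. For each gene 30 bases of the strongest exonic window are shown on the transcript strand, read from GENCODE M21 transcripts (GRCm38), chosen to hold the most bases in runs of at least 3 guanines or, without any, at the window's centre. Capitals mark those runs. The first 5 genes had their reads spread over several windows, and the last 3 were single-position genes. They were chosen after their values were seen, the first 4 for their runs. Runs were not in every such gene: the strongest exonic windows of Snap25, shown above Bloc1s5, and of Nrgn, Cplx2 and Cacna2d2 held 0.
Dynll2: gtGGGtttGGGGtagaaGGGtGGGaaGGGG
Dlg4: GGGaGGGGGGtGGGGGGGcaaaGGGtcagg
Glul: GGGagcGGGaGGGGGGaGGGGaaGGGtaac
Syncrip: GGGaGGGGaGGGaaGGGGGGtcacgcGGGG
Snap25: gagtcagtcacccccattgtaaatgtcctg
Bloc1s5: tgcctgactgattggcgcccgaggacccca
Pus10: GGGtgacagtgtcctaagaaggacagttag
Hnrnph1: aattgaaataatgaaagttgagtggaatta
These lie at chr11:87980483-87980512 (minus strand, 3′ UTR of Dynll2), chr11:70045397-70045426 (plus, 3′ UTR of Dlg4), chr1:153908379-153908408 (plus, 3′ UTR of Glul), chr9:88482242-88482271 (minus, 5′ UTR of Syncrip), chr2:136781289-136781318 (plus, 3′ UTR of Snap25), chr13:38600878-38600907 (minus, 3′ UTR of Bloc1s5), chr11:23732306-23732335 (plus, 3′ UTR of Pus10) and chr11:50382226-50382255 (plus, a non-coding exon of Hnrnph1 transcripts). The full windows of 100 bases held 9, 13, 6, 8, 0, 0, 1 and 0 such runs in the same order.

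Over all 21543 exonic positions whose sequence could be read, GGG occurred in 70.9% and GGGG in 36.9% of windows on the transcript strand. Among the 1048 member positions with at least 10 reads in each methamphetamine library the shares were 86.5% and 56.1%. The strongest exonic position held GGGG in 62.8% of members with 20% to under 80% of reads there (n = 729) in 50.0% of members with under 20% there (n = 298) and in 37.1% of single-position members (n = 229). GGG was in 79.0% of these single positions. The reverse complement CCC, searched in the same windows, was in 63.2% of all positions, in 62.4% of the well-covered ones and in 73.4% of the single positions. Intronic windows, where most reads lie, have no sequence in the transcript file and were not searched. A window without these letters says nothing about where the protein was bound.

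At the other end, the 8 members with the lowest difference had very high RNA read counts. Pnck, a calcium/calmodulin-dependent protein kinase gene, had 62, 65 and 27 CLIP reads against 90261, 137424 and 89731 RNA reads, a difference of -8.77 (SE 0.33, limma adjusted p = 5.72e-07). On a per-length scale its RNA was the highest of all members, at 13.77 log2 CPM per kilobase of transcript, followed by Gtf2i at 11.11 and Ubb at 10.97. Gtf2i, a general transcription factor gene, had 158, 87 and 68 CLIP reads over 70 positions against 43453, 65290 and 38431 RNA reads (-6.62). Ubb, a polyubiquitin gene, had 15, 12 and 40 CLIP reads against 18250, 7221 and 23371 RNA reads (-7.21); its repeats resemble those of other ubiquitin genes, so its reads are uncertain. The motor protein gene Kif5a had 46, 50 and 23 CLIP reads against 17363, 13166 and 17570 RNA reads (-6.40, SE 0.25). Angel2, Stk35, Aplp1 and Jade1 lay at -7.33, -7.30, -6.79 and -6.77. The RNA reads of Stk35 varied widely between pools, with 15160, 26547 and 3999, and its difference was -8.08, -8.71 and -5.11. No saline pool of these 8 genes was above -5.91.

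**Figure D3:**
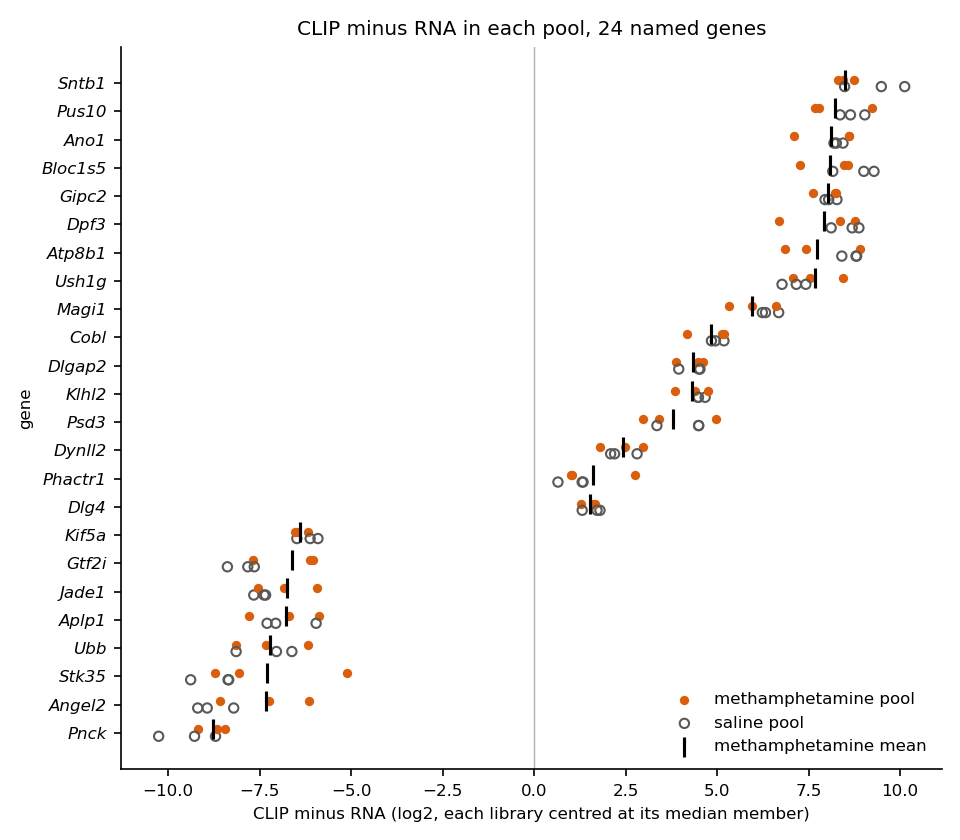
CLIP minus RNA (log2, centred) of the 8 highest members, the 8 lowest members and the 8 members with the most CLIP, 1 filled point per methamphetamine pool, 1 open point per saline pool and a bar for the methamphetamine mean. The pools of a gene lie on the same side of 0 in both treatments, from Pnck at -8.77 to Sntb1 at 8.50.

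Across members, CLIP followed RNA only loosely. The Pearson correlation of the log2 CPM levels over 5019 members was 0.40 in pool 1, 0.11 in pool 2 and 0.13 in pool 3 (Spearman 0.45, 0.13 and 0.17). Genes are not independent replicates, and each value rests on 1 CLIP and 1 RNA library. Leaving out the 1056 single-position members gave 0.48, 0.24 and 0.28 over 3963 genes. For the 3033 members that kept at least 10 reads per library without their strongest position, the correlation was 0.39, 0.11 and 0.14 with it and 0.50, 0.26 and 0.31 without it. For the 1514 members with at least 10 exonic reads per library, exonic reads alone gave 0.31, -0.02 and -0.02, against 0.50, 0.21 and 0.24 with all reads. Pool 1 had the highest value in each of these comparisons. Its CLIP library was also the one with the smallest share of reads at strongest positions, and the part of that share in the correlation was not tested.

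The difference also followed gene length, and the direction turned when both levels were divided by length. With members put in 5 equal groups by genomic span, the shortest and longest had median spans of 9.96 and 295 kb, and from one to the other the median difference went from -0.60 to 1.05. The share of members called above was 24.5% and 52.6% in these groups, and the share called below 42.2% and 10.8%. With CLIP per kilobase of gene span and RNA per kilobase of transcript the medians went from 1.36 to -1.15. Median transcript length was only 2.81 and 5.81 kb in the shortest and longest groups. Dividing by length therefore by itself lowers the difference of long genes and raises that of short ones, so the turn is not a separate result. Introns held a median of 49.0% of a gene's reads in the shortest group and 100% in the longest.

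**Figure D4:**
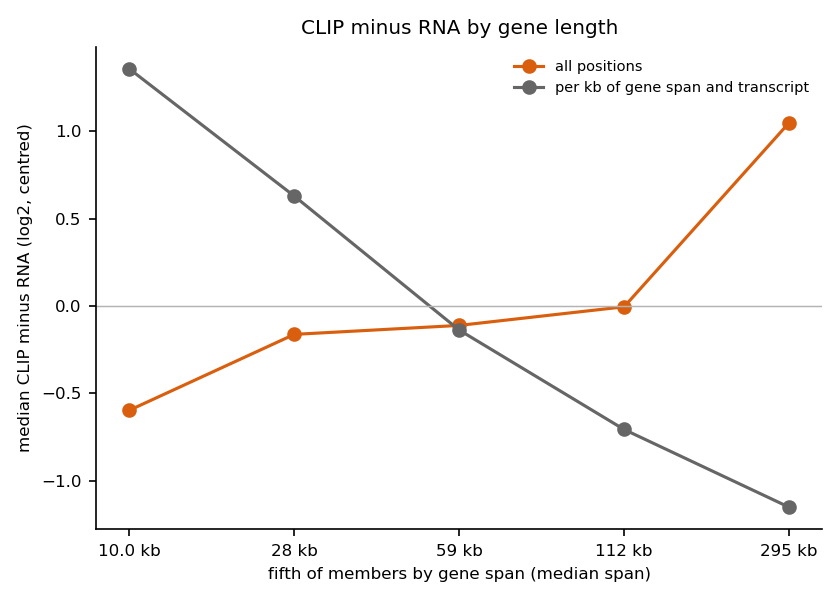
Median CLIP minus RNA (log2, centred) of members in 5 equal groups by gene span, with the median span of each on the horizontal axis, for levels per gene and for levels per kilobase. Values per gene climb from -0.60 to 1.05, and values per kilobase go from 1.36 down to -1.15.

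Of all lists described, genes for neuronal adhesion and synapse organisation, listed for their very long genomic span, had the highest median. All 26 were members, 23 were above and none was below, with a median of 1.87 (1.87, 2.74 and 1.56 in the 3 pools). Over all genes tested 17.9% were above and 42.2% below, with a median of -0.99. Members of the longest span group had a median of 1.05, with 52.6% above. With exonic positions alone, centred anew, the list's median was -1.34, against -0.08 over all genes tested. Introns held a median of 99.0% of a listed gene's reads. Kcnip4, an accessory subunit of potassium channels, had CLIP levels of 7.78, 8.39 and 7.26 log2 CPM and RNA levels of 3.60, 2.98 and 3.90, a difference of 4.04 (SE 0.40). The presynaptic adhesion gene Nrxn3 had 347 positions, all intronic, with CLIP levels of 10.87, 9.85 and 9.60 and RNA levels of 8.05, 7.73 and 8.14, a difference of 1.86 (SE 0.32). The postsynaptic scaffold gene Dlg2, with 243 positions, was at 0.68 (SE 0.44) and not called. The list's median span was 1135 kb. Its median was -1.82 per kilobase, a scale that by itself lowers genes of long span, against -0.54 over all genes tested.

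Genes of RNA-binding proteins lay on both sides. Of 26 hnRNP genes tested, 19 were members, 7 were above and 13 below, with a median of -0.69, beside 17.9% above, 42.2% below and a median of -0.99 over all genes tested. The list's median was 1.58 with exonic positions alone, against -0.08 over all genes tested. Centring anew by itself adds 3.42 to each of these exonic differences, and 1631 of the 5019 members had no exonic read left. Hnrnph1 itself had CLIP levels of 7.19, 7.65 and 7.01 log2 CPM and RNA levels of 4.93, 4.92 and 4.97, a difference of 2.06 (SE 0.32, limma adjusted p = 4.19e-04). All 3 pools were above 0, but 87.4% of its reads lay in the exonic window shown above, and without it the difference was 0.32 and not called. Hnrnpf, the close relative of hnRNP H, was at -0.27 (SE 0.33, not called), with its strongest window in an exon of another gene. Hnrnph2 was not a member. Syncrip, a cytoplasmic hnRNP, had 248, 553 and 300 CLIP reads against 169, 226 and 157 RNA reads and a difference of 3.23 (SE 0.40), with its strongest position in the 5′ UTR. Pcbp1, a poly(C)-binding protein and not a member, was lowest at -4.01, with 8, 12 and 7 CLIP reads against 658, 683 and 880 RNA reads. Hnrnpu was at -0.44 and not called. Hnrnpa0 was at -1.45.

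Of 31 SR proteins and neuronal splicing regulators, 24 were members, 8 were above and 7 below, with a median of -0.19. For this list and the next, the values over all genes tested were 17.9% above, 42.2% below and a median of -0.99. Srrm4, a neuronal activator of microexons, had 685, 817 and 312 CLIP reads against 108, 72 and 173 RNA reads and a difference of 4.64 (SE 0.33). Of its reads 99.6% were at 1 intronic position, without which it was at -1.84. The splicing regulator Celf1 was at -3.17, with 164, 76 and 47 CLIP reads against 4352, 5965 and 2006 RNA reads. Srrm2, a scaffold of nuclear speckles, was at -0.28 and not called. Of 7 tested transcripts whose splicing is reported to respond to hnRNP H, 5 were members, 1 was above and 2 below, with a median of -0.32. The telomere protein gene Terf2 was at 1.24 (SE 0.34), the myosin gene Myh10 at -1.77 (SE 0.31) and the apoptosis regulator gene Mcl1, not a member, at -3.40.

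Genes that mark medium spiny neurons or carry dopamine and cAMP signals lay mostly below RNA. Of 29 tested, 23 were members, 5 were above and 17 below, with a median of -1.37 (-0.95, -2.19 and -1.35 in the 3 pools). Over all genes tested 17.9% were above and 42.2% below, with a median of -0.99. Without the strongest positions the list's median was -0.84, against -1.14 over all genes tested, on the other side of it. The list's median RNA level was 8.53 log2 CPM. Its 23 members alone had a median of -1.07, with 13 below. All members above log2 CPM 8 had a median of -1.99, with 77.5% below. Ppp1r1b, which encodes the dopamine-regulated phosphatase inhibitor DARPP-32, had CLIP levels of 8.21, 7.80 and 7.40 log2 CPM and RNA levels of 10.69, 11.41 and 10.79, a difference of -3.44 (SE 0.31). The adenylyl cyclase gene Adcy5 had CLIP levels of 10.11, 9.45 and 9.13 and RNA levels of 10.80, 11.54 and 10.96 (-1.82, SE 0.33). Tac1, the substance P precursor gene, had 11, 3 and 0 CLIP reads and 911, 1021 and 985 RNA reads and was not a member. Rgs9, which speeds the shut-off of G protein signals, was above RNA in all pools, with CLIP levels of 10.48, 9.78 and 9.68 and RNA levels of 8.09, 8.46 and 8.19 (1.46, SE 0.28). The transcription factor gene Isl1 was highest at 2.61 (SE 0.46), with 55, 90 and 24 CLIP reads against 52, 35 and 34 RNA reads, 85.8% of the CLIP reads at 1 position. Without that position Isl1 was at 0.93 and not called.

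Genes of the vesicle release machinery also lay mostly below RNA. Of 27 tested, 24 were members, 1 was above and 18 below (42.2% below over all genes tested), with a median of -1.98. Without the strongest positions it was -1.22, against -1.14 over all genes tested. The list's median RNA level was 8.58 log2 CPM. Its 24 members alone had a median of -1.58, with 15 below. All members above log2 CPM 8 had a median of -1.99, with 77.5% below. Cplx2, a complexin gene, had 525, 454 and 195 CLIP reads against 6586, 8948 and 8896 RNA reads, a difference of -2.18 (SE 0.30). The SNARE gene Snap25 had 745, 250 and 180 CLIP reads against 7759, 5012 and 6818 RNA reads (-2.01, SE 0.39). Only Rims1, a scaffold of the active zone with a span of 520 kb, was above, at 1.32 (SE 0.31). Of its reads 70.1% were at 1 intronic position, and without that position Rims1 was at 0.64 and not called. Of 22 calcium and sodium channel subunits, 21 were members, 4 were above and 8 below, with a median of -0.33. All genes tested had 17.9% above, 42.2% below and a median of -0.99. Cacnb2, an auxiliary calcium channel subunit, was highest at 1.69 (SE 0.34) and Cacnb3, another, lowest at -3.12 (SE 0.30). Cacna2d2, the alpha2delta subunit gene, had 62, 28 and 34 CLIP reads and 587, 537 and 620 RNA reads, a difference of -1.58 (SE 0.36).

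Of all lists described, those of short housekeeping genes had the lowest medians. The lists below stand beside 17.9% above, 42.2% below and a median of -0.99 over all genes tested. Of 42 cytosolic ribosomal protein genes tested, 3 were members, none was above and 41 were below. Their median was -5.04, or -4.93 with the 3 genes that had no CLIP read in these libraries set to a floor of 3 reads over the group. Rpl38 had 121, 76 and 67 CLIP reads against 1550, 895 and 1490 RNA reads (-1.59, SE 0.30), with 50.8% of its reads in 1 window of the 5′ UTR. Rpl32 had 41, 119 and 36 CLIP reads, all at 1 intronic position, against 3025, 3027 and 2902 RNA reads (-3.42). Of 34 nuclear-encoded oxidative phosphorylation genes, 11 were members, 1 was above and 27 below, with a median of -3.24. The exception was the complex I gene Ndufv1 at 1.33 (SE 0.39), with 164, 365 and 214 CLIP reads at its only position, in an intron. Of 14 glycolysis genes, 9 were members, none was above and 13 below, with a median of -3.49, and Pkm, the pyruvate kinase gene, had 66, 33 and 27 CLIP reads against 9226, 9201 and 9883 RNA reads (-5.60). These lists had median spans of 3.80, 7.43 and 15.9 kb and median RNA levels of 7.07, 6.36 and 8.50 log2 CPM. Per kilobase their medians were -3.05, -2.17 and -2.81, against -0.54 over all genes tested.

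Immediate early genes, which neurons switch on within minutes of stimulation, were also below RNA. Of 20 tested, 6 were members, none was above and 17 were below, with a median of -3.01. Among all genes tested 17.9% were above and 42.2% below, with a median of -0.99. Egr1 had 99, 87 and 30 CLIP reads against 1917, 2050 and 3047 RNA reads, a difference of -2.85 (SE 0.32). Fos and Btg2 were not members. Nr4a3 was highest at -0.69 (SE 0.50), not called. Per kilobase the list's median was -0.46, against -0.54 over all genes tested.

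Markers of cell types gave the following values, beside 17.9% above and 42.2% below over all genes tested. Of 12 oligodendrocyte markers 8 were members, none was above and 9 below (median -2.35), with Mbp, a myelin protein gene, at 579, 224 and 122 CLIP reads against 38360, 22106 and 29620 RNA reads (-4.56). Of 12 astrocyte markers 6 were members, none was above and 10 below (median -2.44). Among them the glutamine synthetase gene Glul had CLIP levels of 10.43, 9.96 and 8.90 log2 CPM and RNA levels of 9.76, 8.92 and 9.92, a difference of -0.05 (SE 0.39), not called, with 97.4% of its reads in the 3′ UTR. Of 11 microglia markers 3 were members, 1 was above and 7 below (median -2.07), and Trem2 had no CLIP read in the 3 libraries against 72, 83 and 107 RNA reads. Of 12 medium spiny neuron markers 2 were above and 9 below, of 11 cortical neuron markers 2 and 6, of 9 interneuron markers 1 and 6, of 12 endothelial markers 2 and 3, and of 10 choroid plexus markers 0 and 4. The medians of these 5 lists were -1.91, -1.92, -1.77, -0.78 and -0.57. The choroid plexus list moved with its RNA level: its median was -0.05 in pool 1, -3.46 in pool 2, which had the high choroid plexus RNA, and 1.25 in pool 3; the part of this RNA in other genes' values was not tested. The endothelial gene Vwf and the interneuron gene Th were the highest of their lists at 4.78 and 3.28, with 83.0% and 83.8% of reads at 1 intronic position.

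**Figure D5:**
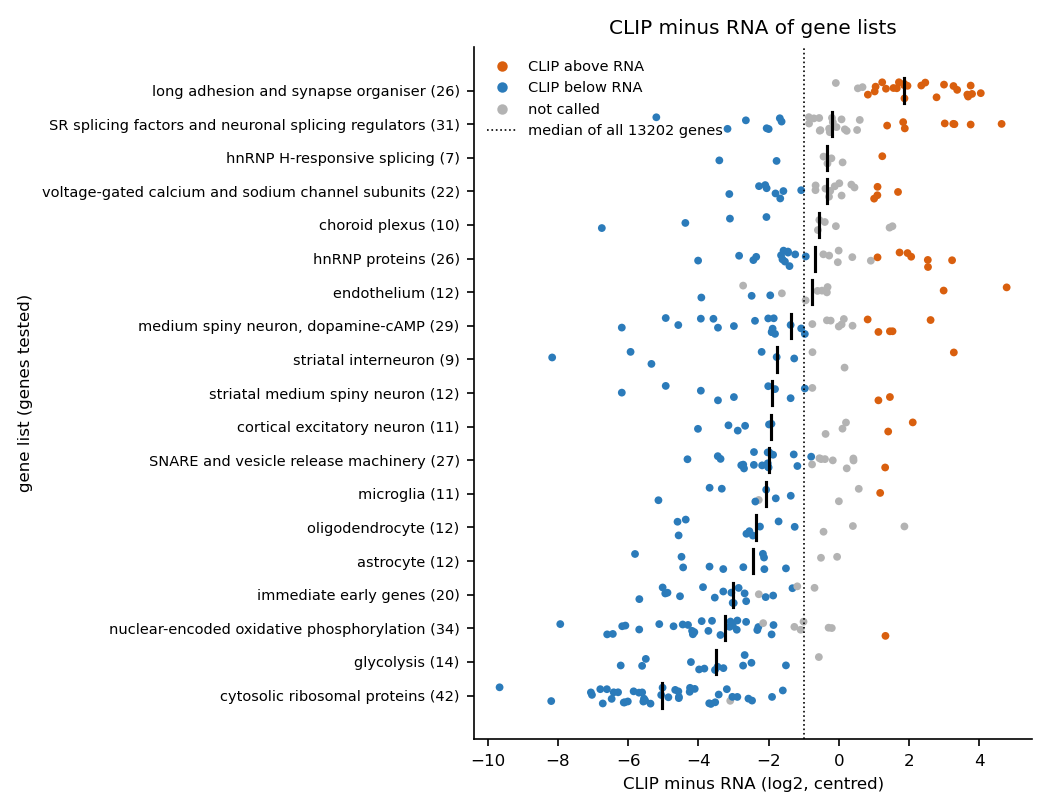
CLIP minus RNA (log2, centred) of every tested gene in 19 lists, 1 point per gene, coloured by call, with a black bar at each list's median and a dotted line at the median of all 13202 genes (-0.99). Cytosolic ribosomal protein genes have the lowest median (-5.04) and long adhesion and synapse organiser genes the highest (1.87).

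The same difference was compared between treatments by an interaction of assay and treatment over the 12 libraries. No gene was called by limma (0 of 13202, 0.0%), and 537 had an unadjusted p under 0.05 (4.07%), 192 of them members. edgeR and DESeq2 also called none, with 1035 and 1132 genes at an unadjusted p under 0.05. Across members the methamphetamine difference and the mean saline difference had a Pearson correlation of 0.98. The rule applied to the saline libraries gave 4408 genes, of which 3976 were members after methamphetamine. The 3 members with the smallest unadjusted p were Cd4, Hs3st2 and Dusp8. Members were chosen on methamphetamine CLIP reads only, which by itself favours genes with fewer CLIP reads after saline. Cd4 had 40, 21 and 20 CLIP reads after methamphetamine and 7, 5 and 8 after saline. Dusp8 had 25, 24 and 17 against 16, 3 and 16. Neither met the member rule in saline, whereas Hs3st2, with 17, 26 and 16 against 49, 27 and 151, did. The gap between treatments in Cd4 and Dusp8 therefore cannot be separated from this choice. Cd4, known from T cells and microglia, lay at -0.82, -1.62 and -0.46 after methamphetamine and at -3.55, -2.39 and -3.91 after saline (unadjusted p = 0.001256, adjusted p = 0.983 by limma), and its pools did not overlap. Hs3st2, a heparan sulfate sulfotransferase gene, lay at -1.68, -1.20 and -2.39 against -0.12, 0.14 and 1.31, and the phosphatase gene Dusp8 at -3.44, -3.93 and -3.25 against -4.57, -5.12 and -5.39. These differences of 2.31 (SE 0.58), -2.20 (SE 0.59) and 1.48 (SE 0.43) did not pass the adjusted test.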

How the data were processed

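The authors deposited hnRNP H CLIP read counts per peak position and, for RNA-seq, log2 CPM values per gene. They also deposited peak lists with a score per position, used here only to ask whether a position was listed. Per the submitters' processing notes, Trimmomatic, UMI-tools, STAR, bedtools, Subread, featureCounts, limma and edgeR were used with build mm10. Their roles, and whether CLIP duplicates were removed or RNA was counted by strand, are not given in the sources used here.

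Each position was kept once and its counts were summed per gene. CLIP log2 CPM used an offset of 0.5 reads, the offset at which the deposited RNA log2 values returned whole reads (within 0.02) for 100% of values. Both assays were centred at their median member and compared with limma 3.58.1 (R 4.3.3, mean-variance trend, Benjamini-Hochberg adjustment over 13202 genes, threshold 0.05). Symbols with several IDs (26) were left out. The interaction with treatment used all 12 libraries. The procedure was tested on simulated data. edgeR 4.0.16 and DESeq2 1.42.0 on reads, a replicate block and other alternatives were also run.

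CLIP and RNA libraries of one number come from one pool per the labels. The deviations of same-numbered libraries had correlations of -0.11, 0.02 and -0.10 after methamphetamine and -0.01, 0.01 and 0.02 after saline. Named genes included the 8 highest and 8 lowest called members with at least 10 RNA reads per library and the same sign in all 3 methamphetamine pools. The others were the 8 with most CLIP, the 3 with most RNA per kilobase and up to 4 per list (highest, lowest and the 2 with most RNA). The 3 of smallest interaction p and a few genes of prior interest were added. Members and lists were chosen with earlier results of these data known. Lists of long non-coding, mitochondrial and histone genes had no gene in both tables and were not analysed here, nor were 718 other genes with 10 CLIP reads per library. Some named genes are not reported here.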

Additional observations from a re-analysis of the deposited data

How the results depend on the processing

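Leaving out each pool in turn gave 1257 to 1668 members above and 936 to 1404 below; the lowest counts were without pool 3. The mean correlation of CLIP with RNA over the 3 pools, 0.21 with all positions, was 0.383 with exonic positions and 0.612 without the strongest position of each gene, and 0.117 to 0.261 without each pool. Both higher values include members with no read left (1631 and 531). Over the same genes with 10 reads left per library, exonic positions gave 0.31, -0.02 and -0.02 against 0.50, 0.21 and 0.24, and leaving out the strongest position gave 0.50, 0.26 and 0.31 against 0.39, 0.11 and 0.14. For the correlation, the setting without the strongest position was chosen after seeing the data. With the replicate block, 1646 members were above, 1393 below and 0 differed between treatments, and of the 98 named genes only Cd4 lost its call (limma adjusted p = 0.0763). With exonic positions alone the sign turned in Phactr1 (-6.57), Rpl38 (1.81), Hnrnpa0 (1.97), Cplx2 (0.27), Egr1 (0.56), Camk2a (0.0194), Cd4 (1.34) and Cacna2d2 (0.98). Without the strongest position it turned in Psd3 (-0.82) and Srrm4 (-1.84). Centring anew by itself adds 3.42 to every gene with exonic positions and 1.13 without the strongest, so each turn upwards comes from that scaling, and each turn downwards from genes that lost nearly all their reads. Other normalizations, tests, filters and offsets kept both member counts within 1.5 times. In the comparison of treatments, every setting run called 0 genes; unadjusted p-values under 0.05 numbered 323 to 1203. Depth limits the 410 members with under 10 RNA reads in some library and the 257 whose weakest CLIP library had 10 reads, since their values rest on few reads.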
